A study of Saccharomyces cerevisiae with 18 samples.

Results

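The transcripts described here are those of 10 budding yeast genes that move potassium, sodium or protons across the plasma membrane, or that encode small proteins or kinases acting on those transporters. They are TRK1, TRK2, TOK1, NHA1, ENA1, PMA1, PMP1, PMP2, HRK1 and SAT4. They were chosen by name and found on the arrays by gene symbol, which gave 10 probe sets for 10 genes among the 5698 S. cerevisiae genes tested. The probe set of ENA1 is shared with ENA2 and ENA5, whose locus tags stand next to that of ENA1 in the reference annotation, so that its signal belongs to the 3 genes together and is called the shared ENA signal below. No filter on low values was applied, and all 10 genes entered every test.

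In yeast, the plasma membrane proton pump Pma1 spends ATP to push protons out, and the membrane potential it builds draws potassium in through the Trk transporters. Surplus potassium and toxic sodium leave through the sodium pump Ena1, the antiporter Nha1 and, for potassium, the channel Tok1. Kinases such as Hrk1 and Sat4 tune this balance, and Sky1, the kinase of SR proteins that is deleted in one of the strains, is known to affect cation homeostasis.

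The strains were W303, a laboratory strain of mating type a, and W303-Δsky1, its derivative without SKY1. The background that both share carries the alleles ura3-52, trp1-100, can1-100 and ade2-1 and a leu2 allele, to which the methods of the study add a his3 allele. Cultures in synthetic medium were divided, and each aliquot was kept for 4 h in the dark with 600 µM cisplatin, a DNA-binding platinum drug dissolved in DMSO, or with DMSO alone, which is called untreated here. Total RNA of 4 groups of 3 biological replicates was read on 12 Affymetrix yeast arrays. The sources used here do not say whether the Δsky1 strain is 1 clone. As RNA came from whole cultures, fewer cells with a transcript and less of it per cell cannot be told apart.

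Signals are log2 values, so that a difference of 1 is a doubling, and they were normalized in 3 tables of 6 arrays: W303 with and without cisplatin, the 2 strains untreated, and the 2 strains with cisplatin. The W303 arrays stand in 2 tables each. Among the genes chosen by name, the value on a W303 array moved between its tables by up to 0.20, the largest gap being that of NHA1. Other genes could move more. VHC1, a transporter gene listed further below, averaged 5.71 in untreated W303 in the table of the untreated strains. On the same arrays it averaged 6.03 in the table of W303 with and without cisplatin. Tests were made only within a table. Cisplatin within W303-Δsky1 and a difference between the strains in their response were not tested. No signal of these probe sets was set against that of another gene, because probe sets differ in how brightly they read.

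SKY1 was checked first. It lay between 7.98 and 8.18 on the W303 arrays, between 0.54 and 1.33 in untreated W303-Δsky1 and between 1.03 and 1.43 in W303-Δsky1 with cisplatin. The background of an array, taken from probe sets of another yeast, was 1.24 to 1.35, and 1 of 3 W303-Δsky1 arrays lay above it in either condition. The lowest signal of any of the 10 genes was 6.69. The 6 a-specific genes examined were above background on every array, at 4.38 or more. Of the α-specific genes, MF(ALPHA)1, MF(ALPHA)2 and STE3 stayed at or below 2.65, while SAG1 read 6.70 to 7.27 on arrays of both strains. In W303-Δsky1, 5 of the 6 a-specific genes were lower than in W303 without the drug and 6 of 6 with it, against 27.4% and 37.8% of all genes. Of the α-specific genes STE3 was higher in W303-Δsky1 without the drug, by 0.41, and SAG1 with it, by 0.27 (limma, adjusted p = 0.0181 and 0.00152). Their part in the results below was not tested.

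A gene is said to have risen or fallen when its adjusted p was under 0.05 in limma, a linear model fitted to all genes of a table, with Benjamini-Hochberg adjustment over the 5698 genes. A differentially expressed gene (DEG) also changed at least 1.6-fold, or 0.68 on the log2 scale, with an unadjusted p under 0.01. With cisplatin, 4 of the 10 genes changed in W303, against 28.4% of all genes tested. NHA1 rose, where 13.2% of all genes did. TRK2, TOK1 and the shared ENA signal fell, where 15.3% of all genes did. None of the 10 was a DEG, a class that took in 3.11% of all genes. The groups did not overlap for 6 of the 10 genes, against 46.5% of all genes. The count of changed genes was 2 in place of 4 without W303 untreated replicate 3 or without W303 cisplatin replicate 2. Over all genes the count was then 1025 or 950 in place of 1621.

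Between the untreated strains 7 of the 10 differed, against 52.3% of all genes. TRK2, TOK1, PMA1 and SAT4 were higher in W303-Δsky1 (24.9% of all genes were), and PMP1, HRK1 and the shared ENA signal were lower (27.4% of all genes were). This count was 4 in place of 7 without W303 untreated replicate 3 or without W303-Δsky1 untreated replicate 1. Over all genes the count was then 2388 or 2486 in place of 2978. Among the cisplatin arrays 8 of the 10 differed between the strains, against 70.6% of all genes. TRK2, TOK1, SAT4 and the shared ENA signal were higher in W303-Δsky1 (32.8% of all genes were), while TRK1, NHA1, PMP1 and HRK1 were lower (37.8% of all genes were). In both strain comparisons TRK2 was the only DEG of the 10, where DEGs made up 10.2% of all genes without the drug and 19.9% with it. The strain groups did not overlap for 7 of the 10 genes without the drug, against 62.0% of all genes, and for 8 of the 10 with it, against 73.9%.

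The median size of the change over the 10 genes, whatever its direction, was close to that over all genes. It was 0.15 against 0.15 with cisplatin in W303, 0.27 against 0.25 between the untreated strains and 0.37 against 0.33 between the strains with cisplatin. The signed median over the 10 genes was -0.12, -0.05 and -0.004 in the same order, beside -0.002, -0.02 and -0.03 over all genes. The 10 genes changed in both directions in each comparison, over ranges from -0.65 to 0.29, from -0.53 to 0.89 and from -0.45 to 0.89 in that order.

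**Figure D1:**
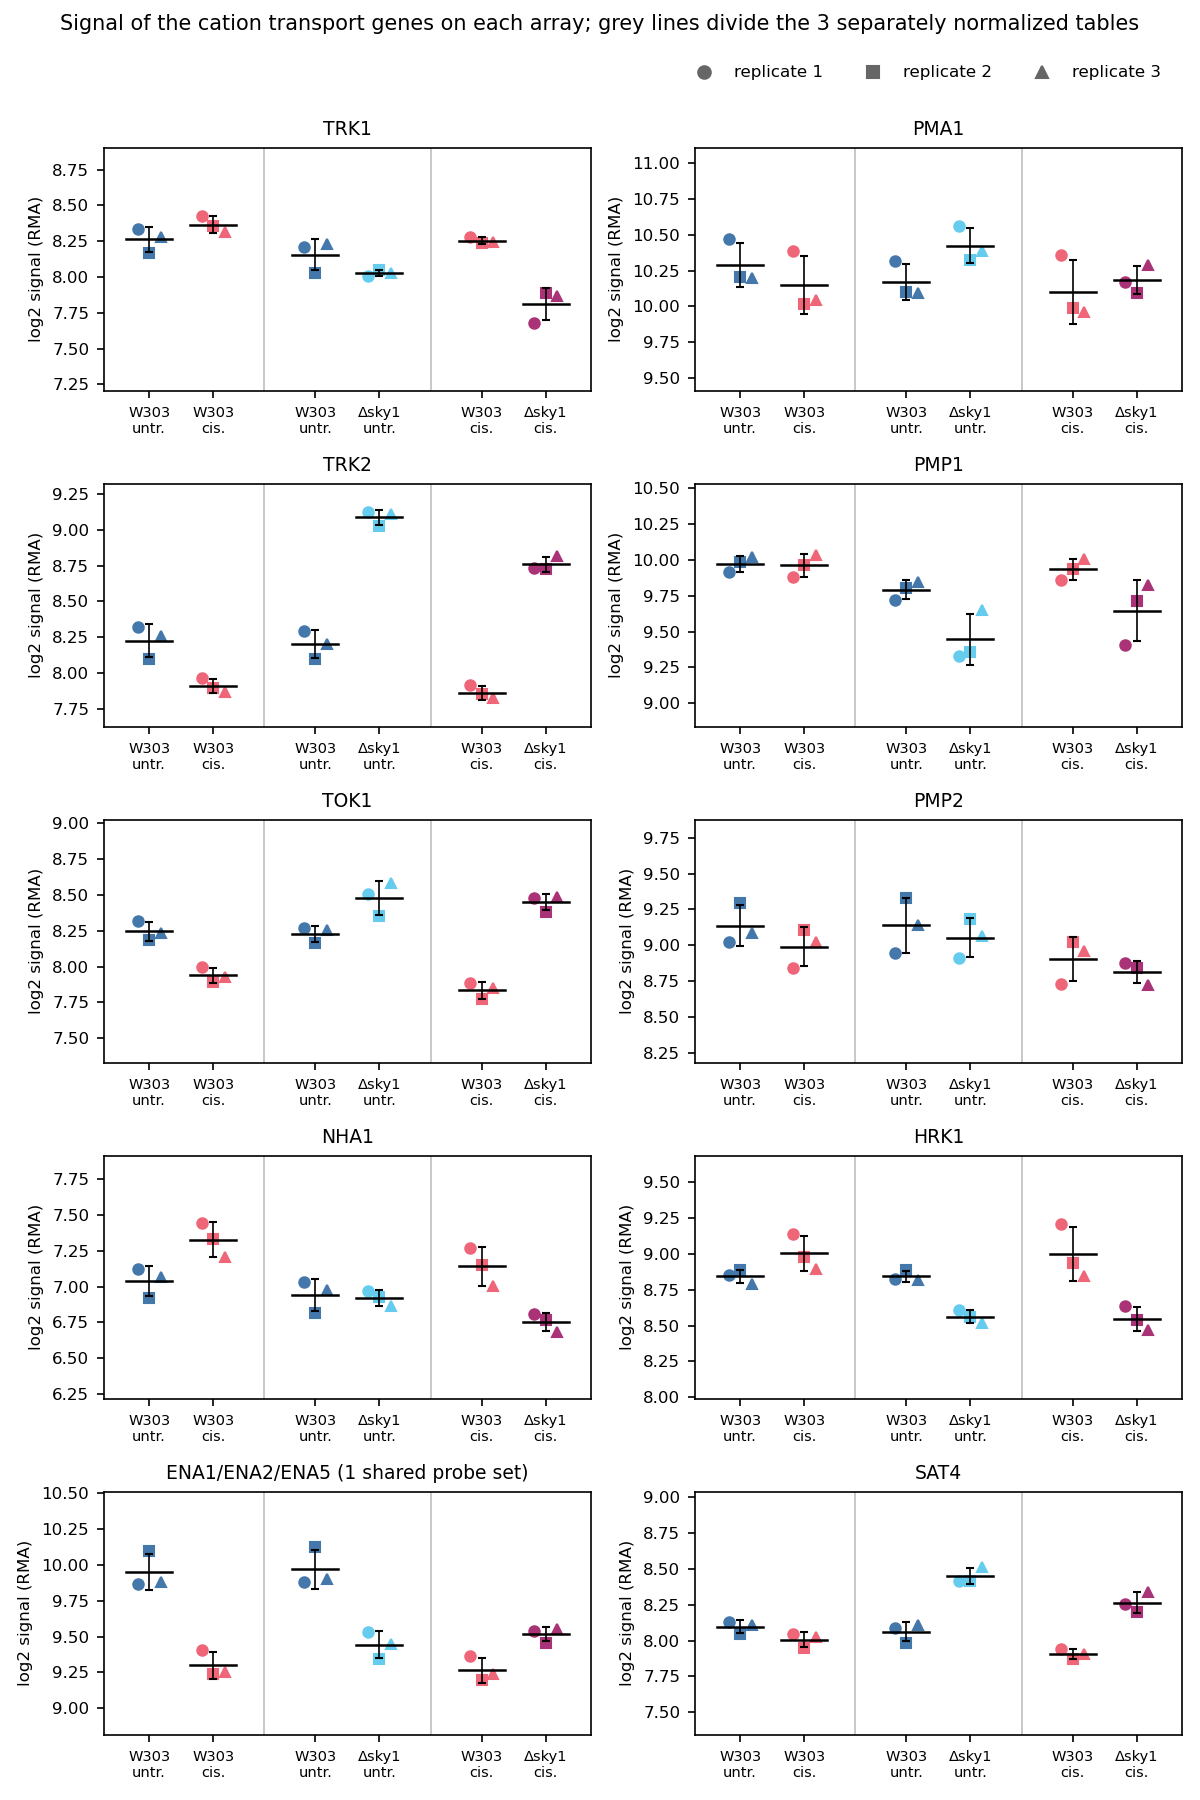
Log2 signal of each of the 10 genes (panels) on every array, with untreated (untr.) and cisplatin (cis.) groups of W303 and W303-Δsky1 in the 3 separately normalized tables. Symbols are the 3 replicates, horizontal lines the group means and bars 1 SD, and every panel spans the same height on the log2 scale. TRK2 sits between 8.73 and 9.12 on the W303-Δsky1 arrays and at or below 8.32 on the W303 arrays, and the shared ENA signal is highest, from 9.87 to 10.13, in untreated W303.

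Potassium uptake is the work of Trk1, the main high-affinity importer, and of its relative Trk2, which carries less of the flow in ordinary cells. In W303-Δsky1 with cisplatin the transcripts of these 2 importers lay on opposite sides of W303, TRK2 above it and TRK1 below. Without the drug, TRK2 read 8.30, 8.10 and 8.20 in W303 and 9.12, 9.03 and 9.11 in W303-Δsky1. Every W303-Δsky1 array was well above every W303 array. The difference was 0.89 (95% CI 0.72 to 1.05), or 1.85-fold, with an adjusted p of 8.2e-05 in limma, and it ranked 255th in size of 5698 genes. With cisplatin, TRK2 read 7.92, 7.85 and 7.82 in W303 and 8.73, 8.73 and 8.82 in W303-Δsky1. The groups were again far apart, and the difference of 0.89 (95% CI 0.77 to 1.02), or 1.86-fold, had an adjusted p of 2.09e-06. It ranked 601st in size there.

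In W303 itself TRK2 fell with cisplatin. The untreated arrays read 8.32, 8.10 and 8.26 and the treated arrays 7.96, 7.90 and 7.87, without overlap. TRK2 fell by 0.32 on the log2 scale (95% CI -0.48 to -0.15; limma, adjusted p = 0.0143). This call was lost without untreated replicate 3 (adjusted p = 0.0567), cisplatin replicate 2 (0.0572) or cisplatin replicate 3 (0.0594), with differences of -0.30, -0.31 and -0.30.

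TRK1 showed no rise in W303-Δsky1. With cisplatin, TRK1 read 8.28, 8.24 and 8.24 in W303 and 7.68, 7.89 and 7.86 in W303-Δsky1, so that all 3 deletion arrays were lower. TRK1 fell by 0.44 between the strains there (95% CI -0.59 to -0.29), a 1.36-fold lower signal with a limma adjusted p of 0.000349. Without the drug, W303 read 8.21, 8.03 and 8.23 and W303-Δsky1 8.00, 8.05 and 8.03. The highest W303-Δsky1 array lay above the lowest W303 array, and the difference of -0.13 (95% CI -0.29 to 0.03) did not pass (limma, adjusted p = 0.159). That lowest array, W303 untreated replicate 2, decided this: without it the difference was -0.19 and passed (limma, adjusted p = 0.0330). The difference passed with the arrays weighted by quality too (limma, adjusted p = 0.00634). With these weights 3883 of all genes passed, in place of 2978. Cisplatin in W303 left TRK1 at 8.34, 8.17 and 8.28 before and 8.43, 8.36 and 8.32 after, a difference of 0.10 (95% CI -0.05 to 0.25; limma, adjusted p = 0.258).

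TOK1 encodes the outward potassium channel of the plasma membrane. In W303, its signal was 8.32, 8.19 and 8.24 without cisplatin and 8.00, 7.89 and 7.93 with it. All treated arrays were lower, and the fall was nearly the same in each divided culture, at -0.32, -0.30 and -0.31 for replicates 1, 2 and 3. TOK1 thus fell by 0.31 (95% CI -0.45 to -0.17; limma, adjusted p = 0.00847).

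Between the strains TOK1 went the other way. With cisplatin, W303 read 7.89, 7.77 and 7.85 and W303-Δsky1 read 8.48, 8.38 and 8.49, again without overlap. The difference was 0.61 (95% CI 0.48 to 0.75), or 1.53-fold, with a limma adjusted p of 2.17e-05, and so below the 1.6-fold limit of a DEG. Without the drug the difference was smaller, at 0.25 (95% CI 0.07 to 0.43; limma, adjusted p = 0.0260), from 8.27, 8.16 and 8.26 in W303 and 8.51, 8.35 and 8.58 in W303-Δsky1. The groups did not overlap, but this smaller difference did not hold in every subset. Leaving out W303 untreated replicate 2 or 3 gave an adjusted p of 0.0613 or 0.0607, and leaving out W303-Δsky1 untreated replicate 1 or 3 gave 0.0764 or 0.0878. It was 0.0813 with the fission yeast probe sets kept in the test.

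NHA1 encodes the antiporter that exports sodium and potassium against protons. It was the only one of the 10 genes to rise with cisplatin in W303. The untreated arrays read 7.12, 6.92 and 7.07 and the treated arrays 7.44, 7.33 and 7.20. The groups did not overlap, and the lowest treated array came close to the highest untreated one. The rise was 0.29 (95% CI 0.10 to 0.48; limma, adjusted p = 0.0348). It was not past the threshold without untreated replicate 2 (adjusted p = 0.0705), untreated replicate 3 (0.0803), cisplatin replicate 1 (0.101) or cisplatin replicate 2 (0.100), nor with the fission yeast probe sets kept in the test (0.0932).

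Without the drug, NHA1 was at 7.03, 6.82 and 6.97 in W303 and 6.97, 6.93 and 6.86 in W303-Δsky1, which overlapped. The difference was -0.02 (95% CI -0.19 to 0.15; limma, adjusted p = 0.841). With cisplatin, W303 read 7.27, 7.15 and 7.00 and W303-Δsky1 6.81, 6.77 and 6.69, all lower. NHA1 fell by 0.39 between the strains under the drug (95% CI -0.56 to -0.21), 1.31-fold, with a limma adjusted p of 0.00167.

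ENA1, ENA2 and ENA5 encode sodium pumps driven by ATP that expel sodium, lithium and potassium, and Ena1 is the one mostly made under salt or alkaline stress. Their shared signal had the largest change of the 10 genes with cisplatin in W303. The untreated arrays read 9.87, 10.10 and 9.88 and the treated arrays 9.41, 9.24 and 9.25. All 3 treated arrays lay far below the untreated ones. The shared ENA signal fell by 0.65 (95% CI -0.84 to -0.46), or 1.57-fold, with a limma adjusted p of 0.00131, ranking 205th in size of 5698 genes. It was just short of the 1.6-fold limit of a DEG. It passed that limit without untreated replicate 1 (difference -0.69), untreated replicate 3 (-0.68) or cisplatin replicate 1 (-0.70).

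The strain difference of the shared ENA signal had opposite signs without and with the drug. Without cisplatin, W303 read 9.88, 10.13 and 9.90 and W303-Δsky1 read 9.54, 9.35 and 9.45. The deletion arrays were all lower, with a mean difference of -0.53 (95% CI -0.73 to -0.32; 1.44-fold; limma, adjusted p = 0.0017). With cisplatin, W303 read 9.37, 9.20 and 9.24 and W303-Δsky1 read 9.54, 9.46 and 9.55. Here the deletion arrays were all higher, with a mean difference of 0.25 (95% CI 0.11 to 0.39; 1.19-fold; limma, adjusted p = 0.00641). The change of sign was not tested.

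A further probe set is annotated to ENA5 alone. Its signal averaged 6.04 ± 0.13 (SD, n = 3) in untreated W303 and 6.01 ± 0.13 with cisplatin, and the difference of -0.03 did not pass (95% CI -0.24 to 0.18; limma, adjusted p = 0.828). It did not pass between the strains either, with differences of 0.26 (95% CI -0.11 to 0.62; limma, adjusted p = 0.202) without the drug and 0.10 (95% CI -0.14 to 0.35; adjusted p = 0.407) with it. How much each of the 3 genes adds to the shared signal cannot be read from these arrays.

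PMA1 encodes the proton pump itself, one of the most abundant proteins of the plasma membrane. It passed in 1 of the 3 comparisons. With cisplatin in W303, PMA1 went from 10.47, 10.21 and 10.20 to 10.39, 10.02 and 10.05. Replicate 1 was the highest of its group on both sides, and the groups overlapped. The difference of -0.14 (95% CI -0.41 to 0.13) did not pass (limma, adjusted p = 0.391).

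PMA1 in the untreated strains was 10.31, 10.10 and 10.10 in W303 and 10.56, 10.32 and 10.39 in W303-Δsky1. The lowest deletion array was barely above the highest W303 array, and PMA1 rose by 0.25 (95% CI 0.04 to 0.46), with a limma adjusted p of 0.0457 that was close to the threshold. It was lost without W303 untreated replicate 2 (adjusted p = 0.102) or 3 (0.142), without W303-Δsky1 untreated replicate 1 (0.144) or 3 (0.0816), and with the fission yeast probe sets kept in the test (0.116). With cisplatin the strains overlapped, at 10.36, 9.99 and 9.96 in W303 and 10.17, 10.10 and 10.29 in W303-Δsky1, and the difference was 0.08 (95% CI -0.16 to 0.33; limma, adjusted p = 0.512). The high W303 cisplatin replicate 1 decided this value: without it the difference was 0.21 and passed (adjusted p = 0.0319).

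PMP1 and PMP2 encode small proteolipids that accompany the proton pump and raise its activity. PMP1 did not pass with cisplatin in W303, where it read 9.91, 9.99 and 10.02 before and 9.88, 9.96 and 10.04 after. The difference was -0.01 with a narrow interval (95% CI -0.16 to 0.13; limma, adjusted p = 0.902). PMP1 was lower in W303-Δsky1 in both strain comparisons. Without the drug it read 9.72, 9.81 and 9.85 in W303 and 9.33, 9.36 and 9.65 in W303-Δsky1, a fall of 0.34 (95% CI -0.57 to -0.12; limma, adjusted p = 0.0173). With the drug it read 9.86, 9.94 and 10.01 in W303 and 9.41, 9.71 and 9.82 in W303-Δsky1, and fell by 0.29 (95% CI -0.52 to -0.05; limma, adjusted p = 0.0323). The groups did not overlap in either case, but the deletion arrays were spread more widely, with an SD of 0.18 without and 0.22 with the drug (n = 3).

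Single arrays mattered for both falls of PMP1. In the untreated table, leaving out W303 replicate 3 gave an adjusted p of 0.0625, and leaving out W303-Δsky1 replicate 1 or 2 gave 0.0629 or 0.0611. In the cisplatin table, leaving out W303 replicate 2 or 3 gave 0.0731 or 0.0969. Leaving out W303-Δsky1 cisplatin replicate 1 gave 0.0608 and took the difference from -0.29 to -0.17. The adjusted p was 0.0750 with the fission yeast probe sets kept in the test.

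PMP2 passed in none of the 3 comparisons, and its groups overlapped in each. It read 9.02, 9.30 and 9.09 in untreated W303 and 8.84, 9.11 and 9.02 with cisplatin, a difference of -0.15 (95% CI -0.37 to 0.08; limma, adjusted p = 0.283). W303-Δsky1 differed from W303 by -0.09 without the drug (95% CI -0.34 to 0.17; adjusted p = 0.544) and by -0.09 with it (95% CI -0.28 to 0.10; adjusted p = 0.359). The latter passed without W303 cisplatin replicate 1, at -0.18 (adjusted p = 0.0474).

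HRK1 and SAT4 encode related kinases of the Npr1/Hal5 family. Hrk1 takes part in the activation of Pma1 by glucose, and Sat4, also called Hal4, works with Hal5 to keep Trk transport active. The 2 kinase transcripts differed in opposite directions between the strains. HRK1 read 8.83, 8.89 and 8.82 in untreated W303 and 8.61, 8.56 and 8.52 in untreated W303-Δsky1. Every deletion array was lower, and HRK1 fell by 0.28 (95% CI -0.42 to -0.14; limma, adjusted p = 0.00512). With cisplatin, HRK1 read 9.21, 8.94 and 8.85 in W303 and 8.63, 8.54 and 8.47 in W303-Δsky1, again all lower, a fall of 0.45 (95% CI -0.67 to -0.23; 1.37-fold; limma, adjusted p = 0.00254).

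SAT4 was higher in W303-Δsky1. It read 8.09, 7.99 and 8.11 in untreated W303 and 8.42, 8.42 and 8.51 in untreated W303-Δsky1, a rise of 0.39 (95% CI 0.24 to 0.54; 1.31-fold; limma, adjusted p = 0.00172). With cisplatin it read 7.94, 7.87 and 7.90 in W303 and 8.25, 8.20 and 8.34 in W303-Δsky1, a rise of 0.36 (95% CI 0.23 to 0.49; limma, adjusted p = 0.000498). The strains were apart on every array in both conditions, and no setting tried took away these calls of HRK1 and SAT4 between the strains.

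In W303 the drug moved neither kinase past the threshold, although the groups of 3 arrays did not overlap. HRK1 went from 8.85, 8.89 and 8.79 to 9.14, 8.98 and 8.89, a difference of 0.16 (95% CI -0.01 to 0.33; limma, adjusted p = 0.139). SAT4 went from 8.13, 8.05 and 8.11 to 8.05, 7.95 and 8.02, a difference of -0.09 (95% CI -0.22 to 0.04; limma, adjusted p = 0.252). Both passed in limma when the arrays were weighted by quality, with adjusted p of 0.0082 and 0.0135. With these weights 3502 of all genes passed, in place of 1621.

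**Figure D2:**
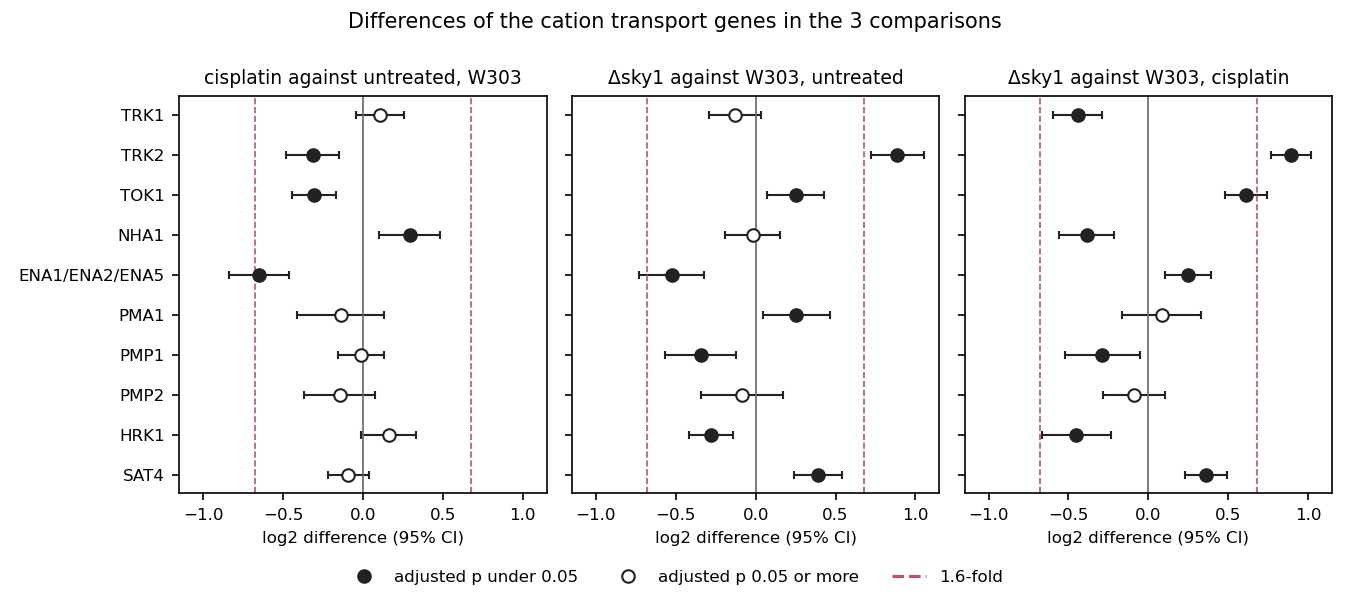
Log2 differences of the 10 genes in the 3 comparisons (panels), with 95% confidence intervals from limma. Filled points have an adjusted p under 0.05 and dashed lines mark 1.6-fold. Only TRK2, at 0.89 in both strain comparisons, lies beyond 1.6-fold, and the point of the shared ENA signal changes side between the strain comparisons, from -0.53 to 0.25.

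Set side by side, the W303-Δsky1 arrays of the untreated and the cisplatin table are described with no test, and no array stands in both of these tables. TRK2 lay between 9.03 and 9.12 without the drug and between 8.73 and 8.82 with it. SAT4 lay at 8.42 to 8.51 without and 8.20 to 8.34 with the drug. TRK1 lay at 8.00 to 8.05 without and 7.68 to 7.89 with it. The ranges did not meet for NHA1 (6.86 to 6.97 without and 6.69 to 6.81 with the drug), PMA1 (10.32 to 10.56 and 10.10 to 10.29) and PMP2 (8.91 to 9.18 and 8.72 to 8.87) either. Where ranges did not meet, the one with the drug was lower. A shift between the tables and an effect of the drug cannot be told apart for these genes. How often ranges fail to meet over all genes was not counted, so no result about these genes is drawn. Mean shifts of the same W303 arrays from the untreated to the W303 table were 0.03 (TRK2), 0.04 (SAT4) and 0.11 (TRK1). They were 0.10 (NHA1), 0.12 (PMA1) and -0.003 (PMP2) for the rest. From the W303 to the cisplatin table they were -0.05, -0.10, -0.11, -0.19, -0.05 and -0.09 in the same order. For the other genes the ranges overlapped. The shared ENA signal lay at 9.35 to 9.54 without and 9.46 to 9.55 with the drug, TOK1 at 8.35 to 8.58 and 8.38 to 8.49, PMP1 at 9.33 to 9.65 and 9.41 to 9.82, and HRK1 at 8.52 to 8.61 and 8.47 to 8.63. Over the 4 conditions TRK2 was highest in untreated W303-Δsky1, then in W303-Δsky1 with cisplatin, then in untreated W303 and lowest in W303 with cisplatin, and of the neighbours in this order only the W303 groups were tested.

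The other genes of monovalent cation transport were described through lists. The first held 9 probe sets of further transporters and their partners: the ENA5 probe set, PMA2, PMP3, KHA1, NHX1, VNX1, VHC1, QDR2 and PHO89. With cisplatin in W303, 4 of these 9 rose, where 13.2% of all genes did, and 5 did not pass, with a median of 0.17 beside -0.002 for all genes. PHO89, the cotransporter of sodium and phosphate, rose as a DEG from 7.06 ± 0.11 to 7.75 ± 0.09 (SD, n = 3), a difference of 0.69 or 1.61-fold (limma, adjusted p = 0.00077). It fell short of 1.6-fold without untreated replicate 2 (0.66), untreated replicate 3 (0.66) or cisplatin replicate 1 (0.64). In untreated W303-Δsky1 2 were higher and 3 lower, beside 24.9% and 27.4% of all genes, and 4 did not pass, and the largest changes past the threshold were those of NHX1, the endosomal sodium-proton exchanger, at 0.58 and VHC1, the vacuolar cotransporter of potassium and chloride, at 0.56 (limma, adjusted p = 0.000642 and 0.00227). With cisplatin 3 were higher in W303-Δsky1 and 4 lower, beside 32.8% and 37.8% of all genes, and 2 did not pass. NHX1 (0.79) and VHC1 (0.78) were now DEGs (limma, adjusted p = 9.02e-06 and 1.78e-05). Without the drug PHO89 had differed between the strains by -0.38 (limma, adjusted p = 0.00577). PHO89 was lower by far, at 5.77 ± 0.06 in W303-Δsky1 against 7.84 ± 0.09 in W303 with the drug, and fell by 2.07 on the log2 scale, or 4.19-fold, the 21st largest change of 5698 genes (limma, adjusted p = 1.09e-07).

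Regulators of Trk1 and Trk2 made up a list of 9 probe sets besides SKY1: the kinase gene HAL5, the Ppz phosphatase genes PPZ1 and PPZ2 with their inhibitor genes SIS2 and VHS3, the calcineurin genes CNA1, CMP2 and CNB1, and ARL1. Cisplatin in W303 raised 2 and lowered 1, where 13.2% of all genes rose and 15.3% fell, and left 6 short of the threshold. PPZ1, whose phosphatase restrains Trk transport, rose by 0.54 (limma, adjusted p = 0.00061) and CMP2, a catalytic subunit of calcineurin, fell by 0.39 (adjusted p = 0.0063). In untreated W303-Δsky1 1 was higher, 2 lower (24.9% and 27.4% of all genes) and 6 did not pass, and CNA1, the other catalytic subunit of calcineurin, was a DEG with a difference of -0.79 (limma, adjusted p = 0.000735). With the drug 3 were higher, 3 lower (32.8% and 37.8% of all genes) and 3 did not pass, and VHS3 was a DEG at 0.75 (limma, adjusted p = 0.000111). Short of 1.6-fold, CNA1 was lower in W303-Δsky1 with the drug too, at -0.64 (limma, adjusted p = 0.000132). VHS3 was higher without the drug too, at 0.38 (limma, adjusted p = 0.00528). List medians were 0.0002, -0.06 and -0.07 in the 3 comparisons.

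For Pma1, the list held the kinase genes PTK1 and PTK2, AST1 and AST2, EXP1, PSG1 and HSP30. None of these 7 passed with cisplatin in W303 by limma, where 28.4% of all genes did. An unadjusted p under 0.05 was reached by 2 of them, against 2401 of all 5698 genes. Without the drug 1 was higher in W303-Δsky1, 4 lower (24.9% and 27.4% of all genes) and 2 did not pass, with a median of -0.23 beside -0.02 for all genes. AST1, which helps Pma1 to reach the plasma membrane, was a DEG with a difference of -0.92 (limma, adjusted p = 0.000101). With cisplatin all 7 differed between the strains, where 70.6% of all genes did, 3 higher and 4 lower in W303-Δsky1. AST1 was again a DEG at -0.89 and PTK1, the relative of the Pma1-activating kinase gene PTK2, a DEG at 0.71 (limma, adjusted p = 3.47e-06 and 0.000109).

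The list of 13 genes known to act on ENA1 transcription holds activators as well as repressors. Its counts by direction and its medians therefore have no single meaning for ENA1. Of the 13, 4 rose, 2 fell (13.2% and 15.3% of all genes) and 7 did not pass with cisplatin in W303, and their median was 0.01. NRG1, a repressor of ENA1, rose by 0.49 and its relative NRG2 fell by 0.45 (limma, adjusted p = 0.0107 and 0.00917). With neither strain treated, 8 of the 13 were lower in W303-Δsky1, 2 higher and 3 short of the threshold, with a median of -0.36 beside -0.02 for all genes. For comparison, 27.4% of all genes were lower there. MIG2, a repressor active in glucose, was the DEG of this list, with a difference of -0.87 (limma, adjusted p = 0.000377). With cisplatin 8 were lower, 1 higher and 4 short of the threshold, with a median of -0.25 beside -0.03, where 37.8% of all genes were lower. SKO1, a repressor under the control of the osmotic stress kinase Hog1, was a DEG with a difference of -0.72 (limma, adjusted p = 4.98e-06). Without the drug SKO1 was lower in W303-Δsky1 too, at -0.36 (limma, adjusted p = 0.00187).

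HRK1 and SAT4 have 8 relatives on the list of Npr1/Hal5 kinases. Of these, PTK1 and PTK2 also stand on the list for Pma1, and HAL5 on that for Trk1 and Trk2. With cisplatin in W303, 1 rose, 2 fell (13.2% and 15.3% of all genes) and 5 did not pass, and the larger changes were those of NNK1, a kinase gene tied to nitrogen metabolism, at -0.41 and PRR2 at -0.29 (limma, adjusted p = 0.0063 and 0.0392). The call of PRR2 was lost without any one of 5 arrays, at adjusted p of 0.0533 and 0.0953 without untreated replicates 2 and 3 and of 0.0830, 0.110 and 0.116 without cisplatin replicates 1, 2 and 3. It was also lost with cyclic loess (0.0657), with quantile normalization (0.0667) and with the fission yeast probe sets kept in the test (0.101). Without the drug 3 were higher in W303-Δsky1, 1 lower (24.9% and 27.4% of all genes) and 4 did not pass. PTK1 was higher in W303-Δsky1 by 0.59 and NPR1, whose kinase stabilizes nutrient permeases, was lower, at -0.56 (limma, adjusted p = 0.0028 and 0.000366).

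With cisplatin all 8 of these kinase relatives differed between the strains, where 70.6% of all genes did, 6 of them higher in W303-Δsky1, where 32.8% of all genes were higher. Their median was 0.43 beside -0.03 for all genes. PRR2 went from 8.64 ± 0.06 in W303 to 9.67 ± 0.10 (SD, n = 3) in W303-Δsky1, the largest change of the list at 1.03 (limma, adjusted p = 2.82e-06). PTK1 (0.71) and NNK1 (0.70) were higher as DEGs too and NPR1 (-0.69) was lower as one (limma, adjusted p = 0.000109, 3e-05 and 6.27e-06).

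The vacuolar proton pump, the V-ATPase, was followed through 15 subunit genes. None of the 15 passed with cisplatin in W303 by limma, where 28.4% of all genes did. An unadjusted p under 0.05 was reached by 3 of the 15, against 2401 of all 5698 genes. All 15 differences lay between -0.20 and -0.01. Between the untreated strains 1 was higher in W303-Δsky1 and 2 lower (24.9% and 27.4% of all genes), with VMA9 at 0.58 and VMA7 at -0.42 (limma, adjusted p = 0.000348 and 0.00653). With cisplatin 4 were higher, 3 lower (32.8% and 37.8% of all genes) and 8 did not pass, with VMA9 at 0.50 and VMA16 at 0.38 (limma, adjusted p = 5.4e-05 and 0.00019), and no subunit gene was a DEG. VMA9 and VMA16 encode subunits of the membrane sector of the pump, and VMA7 a subunit of its catalytic sector.

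**Figure D3:**
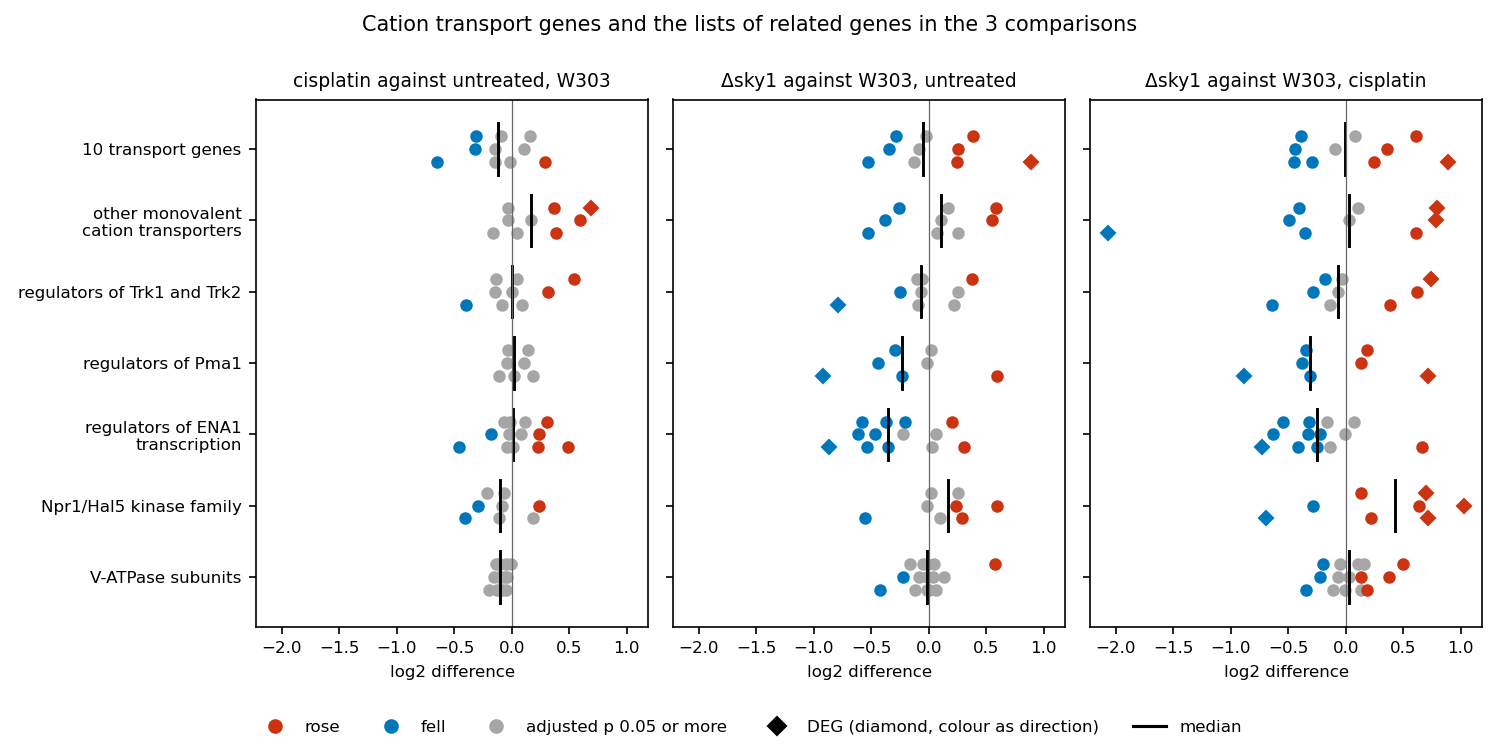
Log2 differences of the 10 transport genes and of the genes of 6 lists (rows) in the 3 comparisons (panels). Each point is 1 probe set, diamonds are DEGs and black bars are row medians. PHO89 stands apart at -2.07 between the strains with cisplatin, and the points of the Npr1/Hal5 kinase list lie mostly to the right of 0 there, with a median of 0.43.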

How the data were processed

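The authors deposited log2 signals made by RMA in Affymetrix Expression Console, in 3 separate runs of 6 arrays, together with their own p-values and false discovery rates, which were not used. RNA was amplified from the 3′ end and labelled with biotin. The sample labels give 10 ng of RNA, and the methods of the study a larger amount. All 18 columns of single arrays were matched to samples and 0 were left unmatched. The genome build was not given in the sources used here, so no coordinates are printed, and protein or promoter sequences were not analysed here.

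Of 10715 probe sets, 5714 belong to S. cerevisiae and 4948 to S. pombe. Of genes with several, the probe set with the highest mean was kept, which left 5698 genes. Background on an array was the signal that 95% of its S. pombe probe sets did not exceed. Each table was fitted with limma 3.58.1 in R 4.3.3 (lmFit, eBayes) with Benjamini-Hochberg adjustment, and the procedure was tested on simulated data. The 3 arrays of a group limit the precision of every value. Genes were matched by symbol or, for VHC1, EXP1, PSG1, VMA1, VMA3, VMA11 and VMA16, by locus tag.

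The 10 genes and the lists were chosen with earlier results of these data known. Of the lists, DEGs are named, and where a list had none, the 2 genes with the largest changes past the threshold.

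Equal replicate numbers were checked for pairing by correlating deviations from the group means. For replicates 1, 2 and 3, r was 0.26, 0.21 and 0.32 in the W303 table, 0.26, 0.22 and 0.43 in the untreated table and 0.44, 0.34 and 0.29 in the cisplatin table. Unequal numbers gave 0.13 or less. The aliquots of a culture pair the W303 samples, and between the strains the pairing rests on these correlations. Alternatives were a replicate block, other probe sets, a filter on dim genes, other variance models, further normalization, array weights, other fold limits and leaving out each array in turn.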

Additional observations from a re-analysis of the deposited data

Results flagged for a closer look

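The strain difference of the probe set shared by ENA1, ENA2 and ENA5 changed sign with the drug. It was -0.53 without cisplatin, when all 3 W303-Δsky1 arrays lay below all 3 W303 arrays, and 0.25 with cisplatin, when all 3 lay above. The difference between the 2 was not tested. No gene was examined for single arrays that stand apart from their group, since groups of 3 are too small for the rule used.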

How the results depend on the processing

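With the replicate number as a block (replicate block), 4, 7 and 8 of the 10 genes passed with cisplatin in W303, between the untreated strains and between the strains with cisplatin, as without it, and the block changed no call of the 10 genes. Over all genes 1859, 3177 and 4323 passed with it, in place of 1621, 2978 and 4023. No difference of the 10 genes that passed changed sign under the alternatives run. Of those that did not pass, 3 changed sign near 0. The difference of PMP1 with cisplatin in W303, -0.01, was 0.017 with cyclic loess and 0.030 with quantile normalization, and ran from -0.050 to 0.028 with 1 array left out. That of NHA1 between the untreated strains, -0.02, was 0.010 with cyclic loess and 0.00041 with quantile normalization, and ran from -0.081 to 0.025 with 1 array left out. That of PMP2 between the untreated strains, -0.09, ran from -0.18 to 0.0096 in the same way.

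Leaving out 1 array at a time gave 2 to 4 of the 10 genes past the threshold with cisplatin in W303, 4 to 7 between the untreated strains and 7 to 10 between the strains with cisplatin. Of all genes tested it gave 950 to 1861, 2388 to 2929 and 3687 to 3930 in the same order. With cisplatin in W303 it gave 0 to 1 DEG among the 10 and 171 to 232 DEGs among all genes. In that comparison the count of all genes with an adjusted p under 0.05 was 998 with the S. pombe probe sets kept. It was 3502 with array weights, whose estimation stopped short of full convergence. DEGs over all genes numbered 179 and 207 in these settings, in place of 177. The causes were not tested.

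A 1.5-fold limit gave 1 DEG among the 10 genes (the shared ENA signal) and 283 over all genes with cisplatin in W303, where a 2-fold limit gave 65 over all genes. At 2-fold, 0 of the 10 genes was a DEG in either strain comparison, and 159 of all genes were without the drug and 432 with it. At 1.5-fold, 2 of the 10 (TRK2 and TOK1) were DEGs between the strains with cisplatin, and 1476 of all genes. With 3 arrays a group, changes much smaller than those called are not resolved.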
